A study of Mus with 16 samples.

Results

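The expression of 10 genes of fatty acid uptake and fat cells was followed across 16 B16 melanoma tumours: Lpl, Cd36, Fabp4, Fabp5, Pparg, Gpihbp1, Angptl4, Plin2, Adipoq and Acsl1. These 10, of 38087 genes in the deposited table, were taken by gene symbol to ask whether lipid uptake genes and adipocyte genes moved together. Lpl and Cd36 were chosen from their measured log2 changes in these libraries, the lower level without B cells in treated tumours and the higher level after antibody in WT mice. Their values in those contrasts, and in the interaction made from them, are therefore given as a description without a test. The other 8 genes were tested where their counts allowed.

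The study asked what B cells contribute to the response of melanoma to PD-L1 blockade. B16, a mouse melanoma cell line, was implanted under the skin of C57BL/6 mice and grown for 7 days, and total RNA of the whole tumour was sequenced after removal of ribosomal RNA. The 4 groups, of 4 libraries each, were WT untreated, WT given anti-PD-L1 antibody, B cell-depleted untreated, and B cell-depleted given the antibody. Treated mice had 3 doses, 1 every 3 days, and tumours were removed 3 days later. All 4 groups carried the same tumour in the same strain, and the WT mice were syngeneic hosts. The tumour cells are of 1 cell line, so every tumour in the series derives from it. In the labels the B cells of these mice are called depleted, whereas the table's columns name the mice as knockouts, and the means of removal is not given for these tumours. The untreated mice are called untreated in the labels, with no control antibody named for these samples. Below, treated means given anti-PD-L1, and libraries are named by group and the letter A to D of their column.

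Lipoprotein lipase, the product of Lpl, splits triglycerides of circulating lipoproteins at the wall of capillaries, and the fatty acids it frees are taken up with the help of CD36. Inside the cell, fatty acid binding proteins carry them, acyl-CoA synthetases such as ACSL1 activate them, and they are burned or stored in droplets coated by perilipins. The nuclear receptor PPARγ drives many of these genes in fat cells, and LPL and CD36 are also made by macrophages, muscle and, for CD36, capillary endothelium.

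Library totals ran from 12544573 to 35647409 counts, and values are given as counts per 1000000 (CPM) on library sizes scaled by the TMM method. Listed gene lengths were those of whole spans, introns included, and whether reads in introns were counted is not stated. CPM of single genes was therefore compared between groups within a gene. Sums over marker genes are the exception, and genes with high CPM weigh most in them. The filter on low counts left 19340 genes for testing, with 9 of the 10 members among them and Adipoq left out. No 2 libraries were identical. The melanocyte markers, which mark the tumour cells, summed to 17081 to 22232 CPM over the 16 libraries. The B cell gene Igkc, an antibody light chain, had 0 counts in all B cell-depleted libraries and 65 counts over the WT libraries. The 6 B cell markers together summed to 1.27 to 5.59 CPM in WT untreated, 1.30 to 2.23 in WT treated, 0.957 to 1.93 in B cell-depleted untreated and 0.711 to 1.76 CPM in B cell-depleted treated tumours, so their ranges overlapped. Cd79a (354 counts in all) and Ighm (215) were the 2 that could be tested, and 0 were called by edgeR or DESeq2 in any comparison (0 at unadjusted p under 0.05). Cd79b, with 64 counts, averaged 0.211 and 0.206 CPM in the depleted groups, untreated and treated, against 0.150 and 0.0744 CPM in WT tumours. Whether a lower value in a whole tumour comes from fewer cells of a type or from less RNA per cell cannot be told apart. A slope of each library's expression on gene GC content also differed between groups, with means of 0.19 ± 0.048 in WT untreated, -0.24 ± 0.16 in WT treated, -0.05 ± 0.48 in B cell-depleted untreated and 0.11 ± 0.12 in B cell-depleted treated tumours (log2 per 10 percentage points of GC, SD, n = 4). B cell-depleted untreated library B stood apart with a slope of -0.72.

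Lpl (ENSMUSG00000015568) spans chromosome 8, positions 68880491 to 68907448 on the plus strand of mm10. Lpl was highest in WT treated tumours, at 5.77, 5.55, 7.21 and 5.52 CPM in libraries A to D. WT untreated tumours had 2.41, 2.56, 2.20 and 1.77 CPM, so every treated WT library lay above every untreated WT library. B cell-depleted tumours had 3.89, 3.83, 2.10 and 3.19 CPM untreated and 2.13, 3.70, 1.85 and 2.06 CPM treated. No B cell-depleted library of either treatment reached the lowest treated WT library. The order of the group means was WT treated at 6.01 ± 0.80, B cell-depleted untreated at 3.25 ± 0.83, B cell-depleted treated at 2.44 ± 0.85 and WT untreated at 2.24 ± 0.34 CPM (SD, n = 4). The lower 3 groups overlapped in their libraries. These levels rest on 27 to 201 counts per library.

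The fitted log2 change of Lpl was 1.43 ± 0.25 (SE) for antibody in WT mice, a 2.69-fold higher level. Between B cell-depleted and WT treated tumours it was -1.29 ± 0.25, and the difference between the B cell effects in treated and untreated tumours was -1.82 ± 0.36. The antibody and treated-tumour values chose the gene, and the last value is made in part from them. Outside them, Lpl was 0.53 ± 0.25 log2 higher in B cell-depleted than in WT untreated tumours (edgeR quasi-likelihood test, adjusted p = 0.264), and 3 of 4 depleted libraries lay above the highest WT library. With antibody in B cell-depleted mice it was -0.39 ± 0.25 (edgeR, adjusted p = 0.599), and the 95% interval ran from -0.93 to 0.14. Neither of these changes passed the threshold of 0.05, and both comparisons share libraries with those that chose the gene.

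Cd36 (ENSMUSG00000002944), the fatty acid translocase, spans chromosome 5, positions 17781690 to 17888959 on the minus strand. Its group means had the same order as those of Lpl. WT treated tumours had 10.4, 8.43, 11.2 and 4.91 CPM, and library D was the low value. WT untreated tumours had 3.10, 2.53, 3.48 and 1.83 CPM, all below the treated WT libraries. B cell-depleted tumours had 3.94, 4.72, 3.14 and 2.42 CPM untreated and 3.40, 5.60, 2.39 and 2.56 CPM treated. Treated library B of the depleted mice, at 5.60 CPM, lay above WT treated library D, so 3 of 4 depleted libraries were below all WT treated libraries. Group means were 8.72 ± 2.79 in WT treated, 3.55 ± 1.00 in B cell-depleted untreated, 3.48 ± 1.48 in B cell-depleted treated and 2.74 ± 0.72 CPM in WT untreated tumours (SD, n = 4).

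The fitted log2 change of Cd36 was 1.68 ± 0.32 for antibody in WT mice and -1.31 ± 0.32 for B cell depletion in treated tumours, and the difference of B cell effects was -1.68 ± 0.45 (SE, no test). Antibody in B cell-depleted mice gave -0.01 ± 0.32 (edgeR, adjusted p = 0.997), with a 95% interval from -0.69 to 0.67. B cell depletion in untreated tumours gave 0.37 ± 0.32 (edgeR, adjusted p = 0.536). Without 1 library at a time, the change in treated tumours ran from -1.57 to -1.17 for Lpl and from -1.65 to -1.16 for Cd36, and both were most negative without B cell-depleted treated library B. The antibody change in WT mice was 1.33 or more for Lpl and 1.52 or more for Cd36 in each of these fits. Both genes followed the GC slope over the 16 libraries (r = -0.55 for each, as a description). Within groups r was -0.11 for Lpl and -0.21 for Cd36. With the slope in the model, the change in treated tumours was -1.23 for Lpl and -1.19 for Cd36 (no test). The part of the slope in these values was not tested.

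**Figure D1:**
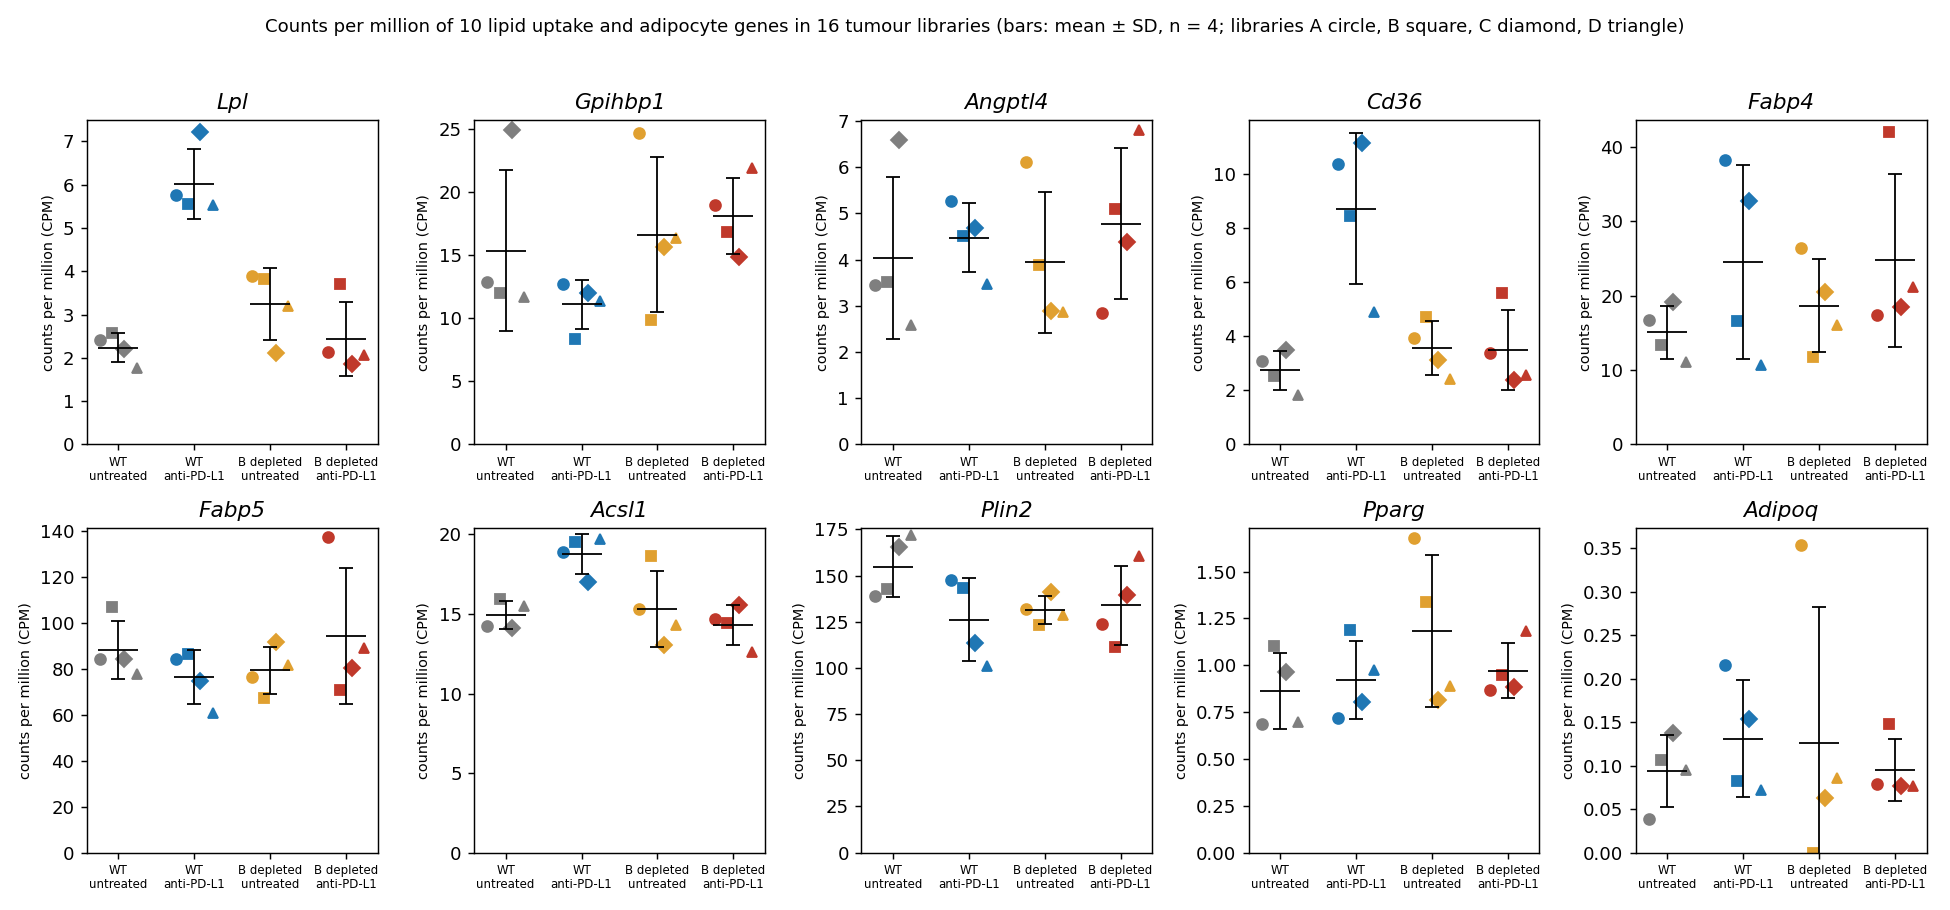
CPM (y axis, from 0) of the 10 genes in the 16 libraries, by group on the x axis, with each point 1 library and black bars the mean ± SD of 4 libraries. Lpl in the 4 WT treated libraries sits between 5.52 and 7.21 CPM, above the other 12 libraries, while Adipoq stays at or below 0.354 CPM everywhere.

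After Cd36, Acsl1, which activates long-chain fatty acids, was the member whose values over the 16 libraries were most like those of Lpl (r = 0.74, as a description). It spans chromosome 8, positions 46471041 to 46536051 on the plus strand. WT treated tumours had 18.9, 19.5, 17.0 and 19.7 CPM against 14.3, 15.9, 14.1 and 15.5 CPM in WT untreated tumours, without overlap. B cell-depleted treated tumours had 14.7, 14.5, 15.6 and 12.6 CPM, all below WT treated, and B cell-depleted untreated tumours had 15.3, 18.6, 13.05 and 14.3 CPM. The untreated depleted library B, at 18.6 CPM, was the only library outside the WT treated group that reached into its range.

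The size of these differences was small beside those of Lpl and Cd36. Acsl1 was -0.39 ± 0.13 log2 in B cell-depleted against WT treated tumours (edgeR, adjusted p = 0.114) and 0.33 ± 0.13 with antibody in WT mice (edgeR, adjusted p = 0.144). The difference of the B cell effects was -0.42 ± 0.19 (edgeR, adjusted p = 0.144), and the other 2 contrasts were 0.03 and -0.09. None passed in the fit of all 16 libraries. The test of treated tumours passed with DESeq2 (adjusted p = 0.0360), and the antibody test in WT mice passed in a fit of those 2 groups alone (adjusted p = 0.0322), where 29.6% of all genes were called. Acsl1 also followed the GC slope (r = -0.68 over 16 libraries and -0.54 within groups, as a description). With that slope in the model its changes were -0.29 and 0.20 (edgeR, adjusted p = 0.285 and 0.576).

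Gpihbp1 makes the protein that anchors lipoprotein lipase to capillary endothelium, and in treated tumours and for antibody in WT mice its fitted changes had the opposite sign to those of Lpl. It spans chromosome 15, positions 75596658 to 75598212 on the plus strand. B cell-depleted treated tumours had 19.0, 16.8, 14.9 and 21.9 CPM, all above the 12.7, 8.32, 11.96 and 11.4 CPM of WT treated tumours. WT untreated tumours had 12.9, 11.96, 24.9 and 11.7 CPM, with library C far above the rest, and B cell-depleted untreated tumours had 24.7, 9.82, 15.6 and 16.4 CPM. The log2 change in treated tumours was 0.71 ± 0.27 (edgeR, adjusted p = 0.136), and with antibody in WT mice it was -0.47 ± 0.27 (adjusted p = 0.271), which became -0.13 without WT untreated library C. The treated-tumour test passed in the fit of those 2 groups alone (adjusted p = 0.0270), which called 14.3% of all genes. Gpihbp1 has a GC content of 57.17%, the highest of the members, and followed the GC slope (r = 0.62 over 16 libraries, 0.57 within groups). With the slope as a covariate the change in treated tumours was 0.37 (edgeR, adjusted p = 0.552) and the antibody change in WT mice was -0.05 (adjusted p = 0.969). The part of the slope in these results was not tested further. The endothelial markers, which mark the cells that carry this anchor, summed to 128 to 222 CPM in B cell-depleted treated and 139 to 181 CPM in WT treated tumours, and 0 of 10 were called by edgeR in treated tumours (1 at unadjusted p under 0.05, and 1 by DESeq2, Egfl7).

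Angptl4, an inhibitor of lipoprotein lipase, spans chromosome 17, positions 33773750 to 33781575 on the minus strand. It lay between 2.59 and 6.79 CPM in all 16 libraries, and its 4 groups overlapped. Group means were 4.04 ± 1.76 in WT untreated, 4.48 ± 0.75 in WT treated, 3.94 ± 1.52 in B cell-depleted untreated and 4.78 ± 1.64 CPM in B cell-depleted treated tumours (mean ± SD, n = 4). Its log2 change was 0.11 ± 0.32 between treated groups and 0.16 ± 0.32 for antibody in WT mice (edgeR, adjusted p = 0.845 and 0.775). The 95% interval of the latter ran from -0.51 to 0.82.

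The fatty acid binding proteins did not pass the test in any comparison. Fabp4, the adipocyte form that is also made by macrophages and endothelium, spans chromosome 3, positions 10204347 to 10208576 on the minus strand. WT treated tumours were split, with 38.2, 16.6, 32.7 and 10.7 CPM in libraries A to D, against 16.7, 13.4, 19.1 and 11.1 CPM in WT untreated tumours. Libraries A and C, the higher pair, were also the highest of that group for Cd36, and library D was the lowest for both genes. B cell-depleted tumours had 26.4, 11.7, 20.5 and 16.04 CPM untreated and 17.4, 42.0, 18.5 and 21.2 CPM treated, with treated library B again far above the others. The antibody change in WT mice was 0.70 ± 0.37 log2 (edgeR, adjusted p = 0.225), and the B cell change in treated tumours was 0.02 ± 0.36 (adjusted p = 0.979). The latter turned to -0.35 without B cell-depleted treated library B and to -0.28 with the GC slope in the model.

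Fabp5, the epidermal form, lies on the same chromosome at positions 10012548 to 10016607 on the plus strand. It ranged from 60.5 to 137 CPM, and its highest library was B cell-depleted treated A. Its log2 change was 0.30 ± 0.18 in treated tumours and -0.21 ± 0.18 with antibody in WT mice (edgeR, adjusted p = 0.303 and 0.480), so both fitted values had the sign opposite to Lpl. The first became 0.066 without B cell-depleted treated library A, and the second -0.10 without WT untreated library B.

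Plin2, which coats lipid droplets in most cell types, spans chromosome 4, positions 86648386 to 86670060 on the minus strand. WT untreated tumours had the highest mean, 155 ± 16.3 CPM, against 126 ± 22.6 in WT treated, 131 ± 7.49 in B cell-depleted untreated and 134 ± 21.3 CPM in B cell-depleted treated tumours (mean ± SD, n = 4). In WT treated tumours, 2 of 4 libraries were below all WT untreated libraries. The antibody change in WT mice was -0.29 ± 0.14 log2 (edgeR, adjusted p = 0.195), with a 95% interval from -0.60 to 0.01, and the B cell change in treated tumours was 0.08 ± 0.14 (adjusted p = 0.722).

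Pparg, the receptor that drives fat cell differentiation, was counted 11 to 43 times per library. It spans chromosome 6, positions 115361221 to 115490401 on the plus strand. Its group means were 0.862 ± 0.20 in WT untreated, 0.922 ± 0.21 in WT treated, 1.18 ± 0.41 in B cell-depleted untreated and 0.971 ± 0.15 CPM in B cell-depleted treated tumours (mean ± SD, n = 4), and the groups overlapped. The antibody change in WT mice was 0.11 ± 0.29 log2 (edgeR, adjusted p = 0.837), with a 95% interval from -0.51 to 0.72. The B cell change was 0.07 ± 0.29 in treated and 0.43 ± 0.29 in untreated tumours (adjusted p = 0.883 and 0.418).

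Adipoq, the fat cell hormone adiponectin, was close to absent. It spans chromosome 16, positions 23146536 to 23158028 on the plus strand, and had 48 counts over all 16 libraries, 0 to 8 in each. The groups had 10 counts in WT untreated, 15 in WT treated, 13 in B cell-depleted untreated and 10 in B cell-depleted treated tumours. In a fit without the filter on low counts, its adjusted p ran from 0.755 to 0.943 over the 5 comparisons, and at this depth no difference was detectable. Of the other 6 defining adipocyte genes, 4 were as sparse: Plin1, the droplet coat of fat cells, had 45 counts in all, Cidec 43, Retn 27 and the hormone gene Lep 19. Lipe, a lipase of stored fat, had 1984 counts and Cfd, the adipsin gene, 299. The 7 defining adipocyte markers together summed to 3.32 to 5.84 CPM in WT treated and 4.69 to 11.1 CPM in B cell-depleted treated tumours. These sums rest mostly on Lipe, which averaged 3.69 of 4.56 CPM in WT treated and 4.70 of 6.55 CPM in B cell-depleted treated tumours, and on Cfd, at 0.521 and 1.35 CPM, while the other 5 together averaged 0.351 and 0.505 CPM.

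No member other than Lpl and Cd36 passed the test in any comparison. In treated tumours 1 of 9 tested members was called, Lpl itself, against 0.698% of all genes, and nothing is read from that count. Of the 7 tested members other than Lpl and Cd36, 0 were called by edgeR in any comparison. At an unadjusted p under 0.05 there were 2 of 7 for the B cell difference in treated tumours (Acsl1 and Gpihbp1), 0 in untreated tumours, 1 for antibody in WT mice (Acsl1), 0 for antibody in B cell-depleted mice and 1 for the interaction (Acsl1). The shares of all tested genes at that level were 25.0%, 19.2%, 26.4%, 10.4% and 30.8%, in the same order. DESeq2 called 1 of them, Acsl1 in treated tumours, where it called 4.58% of all genes. In the other comparisons DESeq2 called 3.18% of all genes in untreated tumours, 5.23% for antibody in WT mice, 1.02% for antibody in B cell-depleted mice and 10.2% for the interaction. The shares of all genes called by edgeR were 0.889% for the B cell difference in untreated tumours, 0.00517% for antibody in WT mice, 0.0672% for antibody in B cell-depleted mice and 7.62% for the interaction. The interaction called Lpl and Cd36, but it is made in part from the contrasts that chose them, so nothing is read from these calls.

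The WT treated libraries were shared by the B cell and antibody contrasts, so a gene that is high in those libraries is lower in the first and higher in the second by construction. Only Acsl1 of the 7 had that pattern of fitted signs, and 3 of 7 had the reverse (Gpihbp1, Fabp5 and Plin2). Over all 19340 tested genes the pattern of Lpl was found in 39.6%, and the reverse pattern was found in 8306 genes. Nothing is read from the signs of the 7. In treated tumours the B cell-depleted libraries lay without overlap below WT for Lpl, which was chosen from this contrast. Of the 7 members not chosen, Acsl1 was below and Gpihbp1 above without overlap, against 21.8% of all genes with separate groups. For antibody in WT mice, Lpl and Cd36, chosen from that contrast, were above without overlap. Acsl1 alone of the other 7 was separate there, also above, against 31.2% of all genes. In the other 2 contrasts 0 of 9 members had separate groups, against 12.7% of all genes in untreated tumours and 4.84% in B cell-depleted mice. The median log2 change of the 9 tested members, Lpl and Cd36 included, was 0.07 in treated tumours against 0.03 over all genes. It was 0.12 against 0.04 in untreated tumours and 0.16 against -0.01 for antibody in WT mice. For antibody in B cell-depleted mice it was 0.03 against -0.01, and for the interaction -0.29 against 0.00. Without the chosen pair, the medians of the other 7 were 0.08, 0.03, 0.11, 0.12 and 0.14 in the same order.

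**Figure D2:**
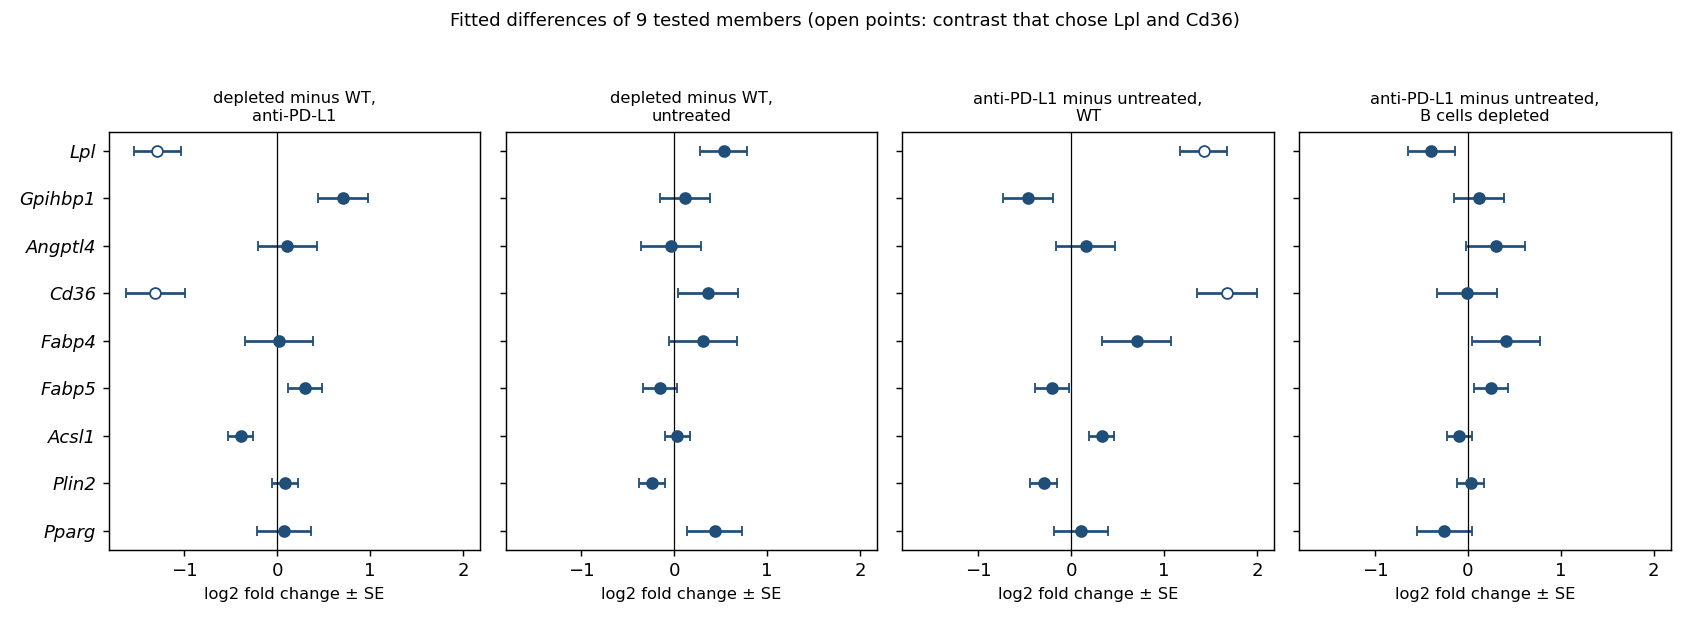
Fitted log2 fold changes ± SE (x axis) of the 9 tested members (y axis) in the 4 contrasts, with open points where the contrast chose the gene. Lpl and Cd36 lie at -1.29 and -1.31 in the first panel and at 1.43 and 1.68 in the third, and the other 7 members lie between -0.47 and 0.71 in both.

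Genes with a pattern like Lpl were ranked by Pearson correlation of log2 CPM over the 16 libraries, among 13145 protein-coding genes of at least 1 CPM on average. Cd36 came first for Lpl (r = 0.89) and Lpl first for Cd36. Next for Lpl were Iqgap2 (r = 0.89), Ppp2r3a (0.81), Ak3 (0.81) and Frmd6 (0.80), and for Cd36 they were Iqgap2 (0.82), Rab23 (0.78), Kctd12b (0.78) and Ppp2r3a (0.78). The spans of Iqgap2 and Ppp2r3a overlap those of F2rl2 and SNORA24, so whether their counts are theirs alone cannot be told. None of these is a member other than the pair itself. Acsl1 ranked 60th for Lpl (r = 0.74), Fabp4 3879th (r = 0.34), Angptl4 4755th (r = 0.25), and Gpihbp1, Fabp5 and Plin2 were negatively related (r = -0.43, -0.46 and -0.58). These correlations include the group differences and are a description only.

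**Figure D3:**
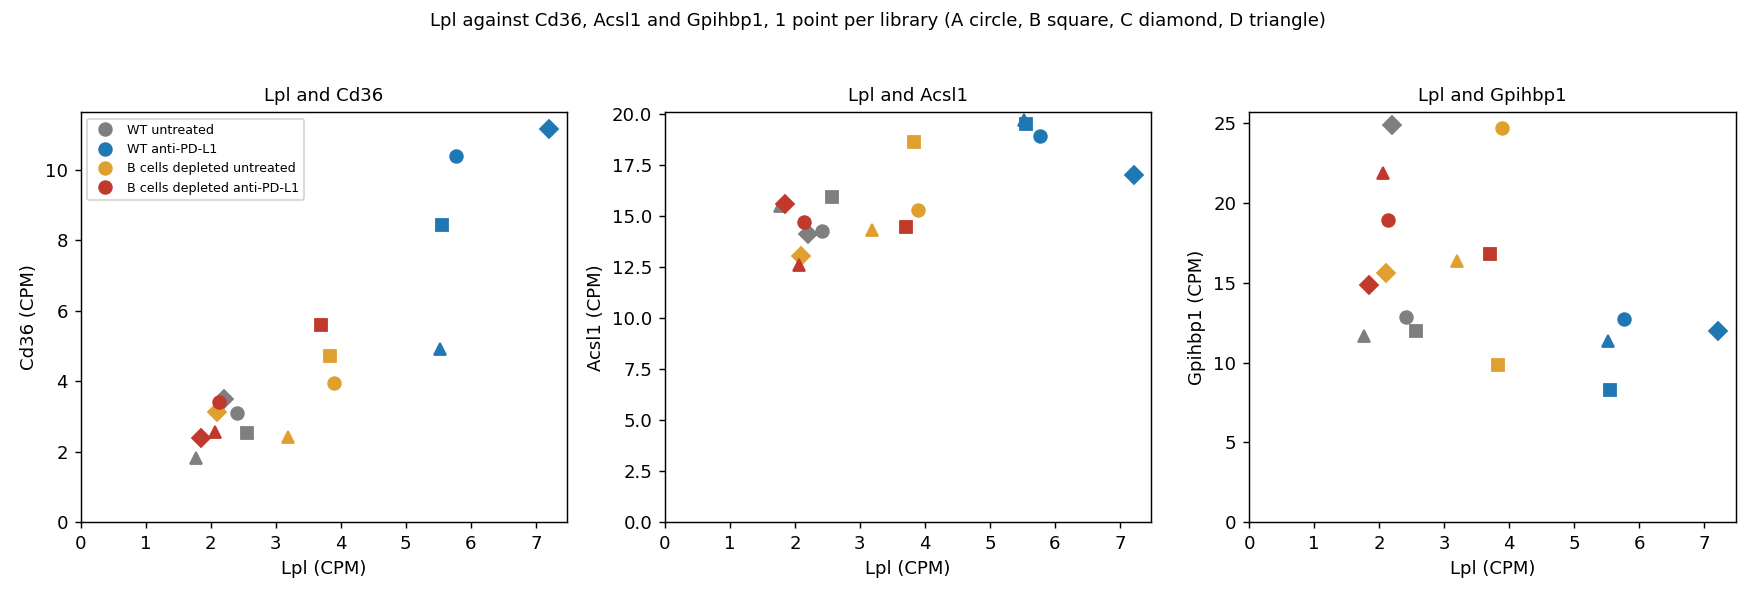
Lpl (x axis, CPM) against Cd36, Acsl1 and Gpihbp1 (y axes, CPM, from 0), with 1 point per library, colours for the 4 groups and shapes for the letters. The 4 WT treated libraries lie at the right of each panel, with Cd36 at 4.91 to 11.2 CPM, Acsl1 at 17.0 to 19.7 CPM and Gpihbp1 at 8.32 to 12.7 CPM.

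Whether the members also moved together among tumours of the same group was asked from the deviations of log2 CPM from the group means, which the choice of members did not use. Over 36 pairs of the 9 tested members, none passed after adjustment (100000 permutations within groups, two-sided). Lpl and Cd36 had r = 0.68 (permutation p = 0.0116, adjusted p = 0.232) and Spearman's rho = 0.70 (permutation p = 0.00557, adjusted p = 0.201), and r was 0.68 without the 2 libraries farthest from the median of Lpl. Cd36 and Fabp4 had r = 0.69 (permutation p = 0.0130, adjusted p = 0.232) and rho = 0.58 (permutation p = 0.0455, adjusted p = 0.234), and r was 0.60 without the 2 farthest libraries. Leaving out B cell-depleted untreated library B raised the r of Cd36 and Fabp4 to 0.89 (permutation test, adjusted p = 0.0126). Of all single omissions this one gave the highest r, and its p is not adjusted for the choice of library. The lowest r was 0.56, without WT treated library D. Removing the GC slope from both genes gave 0.90 (permutation test, adjusted p = 0.0072). Lpl and Plin2 were inversely related (r = -0.56, permutation p = 0.0209, adjusted p = 0.232; rho = -0.52, permutation p = 0.0312, adjusted p = 0.225). Lpl and Acsl1, alike across groups, had r = 0.26 within groups (permutation p = 0.489, adjusted p = 0.800). Lpl with its anchor Gpihbp1 had r = 0.03, with its inhibitor Angptl4 0.37 and with Pparg 0.38.

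**Figure D4:**
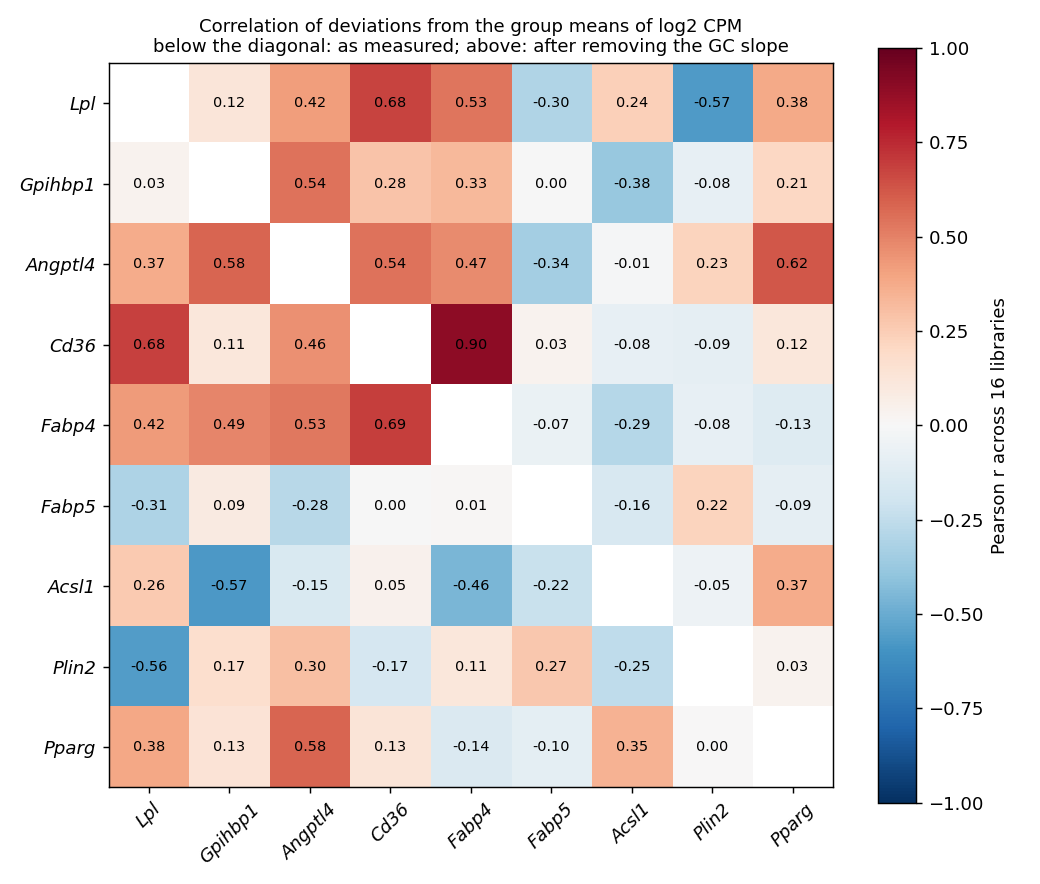
Pearson r of deviations from the group means of log2 CPM for each pair of the 9 tested members over 16 libraries, as measured below the diagonal and with the GC slope removed above it (colour scale from -1 to 1). Cd36 has the highest r with Fabp4 (0.69 as measured, 0.90 with the slope removed) and with Lpl (0.68 in both).

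Markers of the cell types that can make Lpl or Cd36 were summed in each library. The macrophage markers summed to 105 to 162 CPM in WT treated tumours, 48.3 to 151 in WT untreated, 53.9 to 215 in B cell-depleted untreated and 41.1 to 134 CPM in B cell-depleted treated tumours. Of 11 tested, 0 were called by edgeR or DESeq2 in any comparison, but 10 of 11 had a negative fitted value in treated tumours (median -0.27) and 9 of 11 a positive value for antibody in WT mice (median 0.34), where 1 had an unadjusted p under 0.05. The melanocyte markers summed to 19728 to 21827 CPM in WT treated and 17388 to 18359 CPM in B cell-depleted treated tumours, without overlap. Among single genes, 21.8% had separate groups in that contrast. Of the 6 markers, 5 had a negative and 1 a positive fitted value there. By edgeR and by DESeq2 0 were called (1 at unadjusted p under 0.05). The fibroblast markers summed to 87.3 to 414 CPM in B cell-depleted treated and 95.7 to 186 CPM in WT treated tumours, with 6 of 6 fitted values positive and 0 called by edgeR (1 at unadjusted p under 0.05, 0 by DESeq2). The skeletal muscle markers, another tissue that makes Lpl, summed to 5.18 to 11.01 CPM in WT treated and 7.18 to 9.97 CPM in B cell-depleted treated tumours. They summed to 4.47 to 27.8 CPM in B cell-depleted untreated and 6.65 to 9.30 CPM in WT untreated tumours. All 4 tested were positive in untreated tumours, and edgeR called Ttn (1.49 ± 0.32 log2, adjusted p = 0.0416), against 0.889% of all genes. DESeq2 called Ttn and Tnnt3 there, against 3.18% of all genes. The erythroid markers were highest on average in the 2 groups where Lpl was lowest. They summed to 118 to 1484 CPM in WT untreated (mean 548 ± 630, SD) and 146 to 755 CPM in B cell-depleted treated tumours. WT treated tumours had 62.1 to 189 CPM and B cell-depleted untreated tumours 29.7 to 104 CPM, so the 2 WT groups overlapped. Of 5 erythroid genes listed, 3 were in the deposited table: Alas2 and the 2 globin genes Hba-a1 and Hba-a2. All 3 were called higher by edgeR in the interaction, where it called 7.62% of all genes. The part of these cells in the values of Lpl and Cd36 was not tested.

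Other genes of fatty acid handling were examined in 8 lists, of which 53 genes were tested. By edgeR 0 of 53 were called in each of the 4 contrasts and 2 in the interaction, where 7.62% of all genes were called. At an unadjusted p under 0.05 there were 17, 8, 16 and 0 of 53 in treated tumours, untreated tumours, WT mice and B cell-depleted mice, and DESeq2 called 4, 1, 3 and 0. Against these counts stand 25.0%, 19.2%, 26.4% and 10.4% of all genes at that unadjusted p, and 4.58%, 3.18%, 5.23% and 1.02% called by DESeq2. In the interaction 10 of 53 had that unadjusted p, against 30.8% of all genes, and DESeq2 called 5, against 10.2%. The DESeq2 calls were Slc27a3, Slc27a1, Got2 and Dgat1 in treated tumours and Plin4 in untreated tumours. For antibody in WT mice they were Apoe, Acaca and Lmf1, and in the interaction Slc27a3, Apoe, Nr1h2, Acaca and Acsl5. The list of fatty acid uptake and activation genes had 13 of 13 tested, with 6 positive and 7 negative values in treated tumours (median -0.22). Acsl5, another acyl-CoA synthetase, was 72.2 ± 2.64 in WT untreated, 103 ± 13.2 in WT treated, 89.6 ± 28.7 in B cell-depleted untreated and 72.4 ± 1.57 CPM in B cell-depleted treated tumours. Its B cell effects differed by -0.81 ± 0.24 log2 between treated and untreated tumours (edgeR, adjusted p = 0.0483), which became -0.23 (adjusted p = 0.439) with the GC slope in the model and missed the threshold when any 1 of 12 of the 16 libraries was left out, the exceptions being B cell-depleted untreated A, B and D and WT treated A. The fatty acid transporters Slc27a3 and Slc27a1 had the opposite sign to Lpl, at 1.15 ± 0.33 and 0.99 ± 0.31 log2 in treated tumours (edgeR, adjusted p = 0.0796 and 0.0913).

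Of 7 regulators of lipoprotein lipase, 5 were too low to be tested, among them the activator Apoc2 with 55 counts. Apoe, the apolipoprotein that carries lipid between cells, had 1002 ± 69.6 CPM in WT untreated, 514 ± 151 in WT treated, 643 ± 239 in B cell-depleted untreated and 866 ± 103 CPM in B cell-depleted treated tumours (mean ± SD, n = 4). It was lowest where Lpl was highest. Its interaction was 1.39 ± 0.35 log2 (edgeR, adjusted p = 0.0309), and 0.68 (adjusted p = 0.127) with the GC slope in the model, and leaving out any 1 of 8 of the 16 libraries brought the adjusted p above the threshold. Sel1l, which helps lipase mature, was -0.27 ± 0.14 in treated tumours (adjusted p = 0.228).

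A list of 13 adipocyte genes shares Plin1, Cidec, Lep, Retn, Cfd and Lipe with the defining markers above, so it is not a separate set. Of the 13, 6 could be tested, Cfd and Lipe among them, and 0 were called by edgeR or DESeq2. All 6 fitted values in treated tumours were positive, the direction opposite to Lpl (median 0.28), and 4 of 6 were negative for antibody in WT mice (median -0.19). Cfd was at 1.49 ± 1.11 in treated tumours and 3.33 ± 1.66 for antibody in WT mice (adjusted p = 0.394 and 0.207), with 156 of its 299 counts in 1 library. The glucose transporter Slc2a4 was at 0.39 ± 0.27 and -0.58 ± 0.27 (adjusted p = 0.355 and 0.182). Of 7 lipid droplet genes, 6 were tested and 5 were positive in treated tumours (median 0.18). The largest was Plin4, another perilipin, at 1.05 ± 0.40 in treated and 1.32 ± 0.40 in untreated tumours (edgeR, adjusted p = 0.135 and 0.105), and DESeq2 called it in untreated tumours. Hilpda, a droplet protein, was at 0.15 ± 0.24 and, for antibody in WT mice, at -0.48 ± 0.24 (adjusted p = 0.692 and 0.201).

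The PPAR receptors and partners had 8 of 8 tested, with 6 positive values in treated tumours (median 0.10) and 4 positive for antibody in WT mice (median 0.01). The coactivator gene Ppargc1a was at 0.64 ± 0.23 and the sterol receptor gene Nr1h2 at -0.48 ± 0.16 for antibody in WT mice (edgeR, adjusted p = 0.117 and 0.107). Fatty acid oxidation had 9 of 10 genes tested, with 6 negative in treated tumours (median -0.03) and 5 positive for antibody in WT mice (median 0.10). The mitochondrial enzymes Hadhb and Acadl were at 0.38 ± 0.28 and 0.29 ± 0.16 for antibody in WT mice (adjusted p = 0.388 and 0.244). Fatty acid synthesis had 8 of 8 tested, with 6 negative in treated tumours (median -0.24) and 6 positive for antibody in WT mice (median 0.20). The elongase Elovl6 was at 0.53 ± 0.21 with antibody in WT mice and the acyltransferase Gpam at -0.45 ± 0.21 in treated tumours (adjusted p = 0.140 and 0.199). The efflux transporters Abca1 and Abcg1 were at 0.70 ± 0.29 and 0.39 ± 0.29 for antibody in WT mice (adjusted p = 0.148 and 0.386).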

How the data were processed

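The authors deposited raw read counts per gene on mm10, with gene length and, per the file headers, the GC content of each gene span in percent, and a table of log2 values from which the limma alternative was made. The submitters' processing notes name DESeq. Aligner, counter and annotation release were not given in the sources used here. Listed lengths equalled the whole span in all 38087 genes. A further 32 columns of per-library values were not used here, nor were the tables of the authors' own group comparisons (fold changes and p-values) and of gene set enrichment.

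Counts were fitted with edgeR 4.0.16 in R 4.3.3 (TMM factors, filterByExpr, robust quasi-likelihood F test, all 16 libraries, Benjamini-Hochberg over 19340 genes, threshold 0.05). CPM used the TMM library sizes, and log2 CPM a prior count of 2. Alternatives were RLE factors, no filter, the GC slope as covariate, only the groups compared, each library left out, DESeq2 1.42.0 and limma 3.58.1. On simulated counts for the treated-tumour comparison (19105 genes), 56 of 100 genes changed 2-fold and 96 of 100 changed 4-fold were recovered, with 9 false calls.

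The members and lists were chosen with earlier results of these data known. Named besides the 10 members were, per list, the genes called by edgeR in a comparison and the 2 with the largest change in the contrasts that gave Lpl. The 5 genes most like Lpl and the 5 most like Cd36 were named too. Some genes called only by DESeq2 were added after their values were seen. Angptl8 is listed as Gm6484 and Adgre1 as Emr1. All 10 members matched the RefSeq table by symbol. Each library was taken as a separate mouse, since the series gives 4 mice per group. Where nothing says more, p-values measure the spread between these libraries.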

Additional observations from a re-analysis of the deposited data

Results flagged for a closer look

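Groups of 4 libraries were checked for a library whose gap to its nearest neighbour, over the group's whole range, exceeded Dixon's 95% limit. Such a library was found in 5 of 40 group values of the 10 members. Chance gives about 1 in 20 for independent groups. The 40 values come from the same 16 libraries and are not independent, so the 5 are not set against that rate. B cell-depleted treated library B was such a library for Lpl (3.70 CPM), Fabp4 (42.0 CPM) and Adipoq (0.148 CPM, which is 5 counts), in each case the highest of its group. WT treated library C was the highest of its group for Lpl at 7.21 CPM, and WT untreated library C was the highest of its group for Gpihbp1 at 24.9 CPM.

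The B cell effect differed between treated and untreated tumours for Lpl by -1.82 and for Cd36 by -1.68 on the log2 scale. Both differences are made in part from the contrasts that chose these genes, so they are given without a test.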

How the results depend on the processing

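The number of members called in treated tumours was 1, against 0.698% of all genes. It became 0 with the GC slope in the model (0.202% of all genes) and with the authors' log2 values (0.0901%). It was 3 in a fit of the groups compared (Lpl, Cd36 and Gpihbp1), where 14.3% of all genes were called. With DESeq2 it was also 3 (Lpl, Cd36 and Acsl1), against 4.58% of all genes. Leaving out 1 library gave 0 to 1, and Lpl was still called only without B cell-depleted treated library B. For antibody in WT mice the number was 0, against 0.00517% of all genes. It became 3 in a fit of those groups (Lpl, Cd36 and Acsl1), against 29.6% of all genes. With DESeq2 it was 2 (Lpl and Cd36), against 5.23%. For the interaction it was 2, against 7.62%. It became 1 (Lpl) with the GC slope (0.91% of all genes) and with the authors' log2 values (1.76%). Leaving out 1 library gave 1 to 2. Lpl and Cd36 were chosen from the treated-tumour and WT antibody contrasts, and the interaction is made in part from these. Nothing is therefore read from the calls of the pair in any setting. The members' median log2 change ranged from 0.031 to 0.45 in untreated tumours, highest without WT untreated library C, and from -0.40 to 0.0046 for the interaction, highest without WT treated library A. The number of correlated pairs was 0 and became 1 with the GC slope removed and 0 to 1 leaving out 1 library, in both cases Cd36 and Fabp4.

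With the GC slope in the model the sign turned for Fabp4 (-0.28), Angptl4 (-0.085) and Plin2 (-0.018) in treated tumours, Angptl4 (0.092) and Acsl1 (-0.044) in untreated tumours, Cd36 (0.071) and Plin2 (-0.026) for antibody in B cell-depleted mice and Angptl4 (-0.18) in the interaction. It also turned for Pparg in treated tumours (-0.63) and Angptl4 in untreated tumours (0.017) with the authors' log2 values, for Angptl4 in untreated tumours with only the groups compared (0.020), and for Cd36 with antibody in B cell-depleted mice without the filter (0.0043). None of these 12 changes was called, and the cause was not tested.

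Of 432 member values recomputed without 1 library, 25 changed sign. In treated tumours these runs gave -0.35 to 0.33 for Fabp4, -0.037 to 0.24 for Pparg, -0.11 to 0.28 for Angptl4 and -0.018 to 0.18 for Plin2. In untreated tumours they gave -0.13 to 0.45 for Gpihbp1, -0.33 to 0.30 for Angptl4 and -0.056 to 0.13 for Acsl1. For antibody in WT mice they gave -0.043 to 0.25 for Pparg and -0.0083 to 0.49 for Angptl4. In B cell-depleted mice they gave -0.36 to 0.16 for Cd36, -0.058 to 0.37 for Gpihbp1, -0.072 to 0.10 for Plin2 and -0.17 to 0.011 for Acsl1. For the interaction they gave -0.68 to 0.0046 for Fabp4 and -0.19 to 0.44 for Angptl4. Lpl kept its sign in all of these runs.

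No paired analysis was possible because the columns carry letters rather than the replicate numbers of the labels. Counts of 11 to 43 per library limit Pparg, and 0 to 8 limit Adipoq.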
